A study of Mus musculus with 12 samples.

Results

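The mitochondrial chromosome of the mouse carries 37 genes, and all of them were examined in C2C12 myotubes given STEM or horse serum. They were taken as the rows of the deposited count table whose Ensembl identifier lies on chromosome M in a GENCODE annotation of genome build GRCm38. These rows were 37 of 55487 genes listed, and comprised 13 protein genes, 2 rRNA genes and 22 tRNA genes. C2C12 cells are a mouse myoblast line whose cells, once serum is withdrawn in part, join into myotubes with many nuclei. All wells were differentiated for 5 days in medium with 2% horse serum. That medium was then exchanged for 24 h for medium with 4% horse serum (HS, libraries 1 to 6) or with 4% STEM (libraries 7 to 12), a mixture without cells of factors that human embryonic stem cells secrete after partial differentiation. The STEM wells received no horse serum in those 24 h, so that the addition of STEM and the removal of serum cannot be told apart. No source used here says that the libraries of a group came from separate cultures, so the p-values measure the spread between these libraries, which may be technical.

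The mitochondrial protein genes encode core subunits of the respiratory chain complexes I, III and IV and of the ATP synthase, while every other subunit comes from nuclear genes. Both strands of the circular genome are transcribed into long precursors, in which tRNAs mark many of the borders between the other genes. Cutting at the tRNAs releases the mRNAs and the 2 rRNAs of the mitochondrial ribosome, so that the level of each RNA follows its own processing and decay as well as transcription. Skeletal muscle is rich in mitochondria, and their number and RNA rise as myoblasts become myotubes.

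Libraries held between 13285472 and 24536264 counts, and HS library 6 stood apart from its group. Its chi-square per degree of freedom against the other HS libraries was between 62.8 and 76.6, while pairs among HS libraries 1 to 5 gave 3.73 to 10.1. The 23 myotube markers summed to 17896 CPM (counts scaled to library size) in HS library 6, to 33242 to 35786 CPM in HS libraries 1 to 5 and to 27482 to 34314 CPM with STEM. Of these markers 4 passed the test described below (2 higher and 2 lower with STEM), where 36.4% of all genes did. Without HS library 6, 17 passed (2 higher and 15 lower), where 50.8% of all genes did (26.3% higher and 24.5% lower). The 14 proliferation markers summed to 913 to 1338 CPM in HS libraries 1 to 5, 1497 CPM in HS library 6 and 693 to 860 CPM with STEM, and 11 were called lower with STEM, as were 17.4% of all genes. The 8 markers of myoblasts and reserve cells summed to 637 to 707 CPM, 832 CPM and 765 to 883 CPM in the same order. Of these 8 markers 2 were called higher and 3 lower with STEM, beside 18.9% and 17.4% of all genes. Without HS library 6 the counts were 3 and 3, beside 26.3% and 24.5%. Those of fibroblastic and adipogenic cells were low but summed higher with STEM, at 13.1 to 18.2 CPM, 27.8 CPM and 29.2 to 31.3 CPM, and 2 of the 3 tested were called higher (3 without HS library 6), with Adipoq, Plin1, Thy1 and Lum at 3 counts or fewer in every library. Macrophage and endothelial markers summed to at most 6.07 CPM in any library. The part of these differences in the results below was not tested, and in bulk RNA fewer cells of a type and less RNA per cell cannot be told apart.

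Between the groups, the mitochondrial transcripts did not move together. With STEM, mt-Co1, the core catalytic subunit of complex IV (cytochrome c oxidase), fell by 23.1%, and mt-Nd6, the complex I subunit encoded on the opposite strand, fell by 31.8%. The 16S ribosomal RNA mt-Rnr2 fell by 28.2% and the counts on the tryptophan tRNA gene mt-Tw fell by 35.1%. However, the calls of mt-Rnr2 and mt-Tw were each lost in 10 of the 12 fits that left out a single library. Those of mt-Co1 and mt-Nd6 held in all 12. No mitochondrial gene was called higher. The test was edgeR's quasi-likelihood test on all genes with Benjamini-Hochberg adjustment, with a call made where the adjusted p was 0.05 or less. Of the 12 protein genes with enough counts to be tested 2 were called, of the 2 rRNA genes 1, and of the 11 tRNA genes tested 1, all lower with STEM. In the same fit 36.4% of 14175 genes were called, 17.4% as lower and 18.9% as higher. The median log2 fold change of the tested protein genes was 0.01, equal to the 0.01 of all genes, and that of the tRNA genes was -0.04. Among the protein genes edgeR gave 2 as higher at an unadjusted p under 0.05, and DESeq2 and limma-voom each called 0 as higher.

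Without HS library 6, edgeR called 50.8% of 14267 genes, 24.5% as lower and 26.3% as higher. Among the protein genes 4 were then called: mt-Co1, mt-Nd5 and mt-Nd6 as lower and mt-Nd1 as higher. The rRNA call was again mt-Rnr2, and mt-Ti, the isoleucine tRNA, joined mt-Tw. Leaving out STEM library 12 as well, which had the highest CPM of its group for 10 of the 13 protein genes, gave 5 protein genes, with mt-Nd2 added as lower, and both rRNAs, among 49.6% of all genes. With all 12 libraries, no member had its STEM libraries all above or all below the HS libraries, which 17.2% of all tested genes did (8.68% above, 8.52% below). Without HS library 6, the STEM libraries lay below every HS library for mt-Co1, mt-Nd6, mt-Rnr2 and mt-Ti, against 16.5% of all genes, and above for none, against 16.8%.

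**Figure D1:**
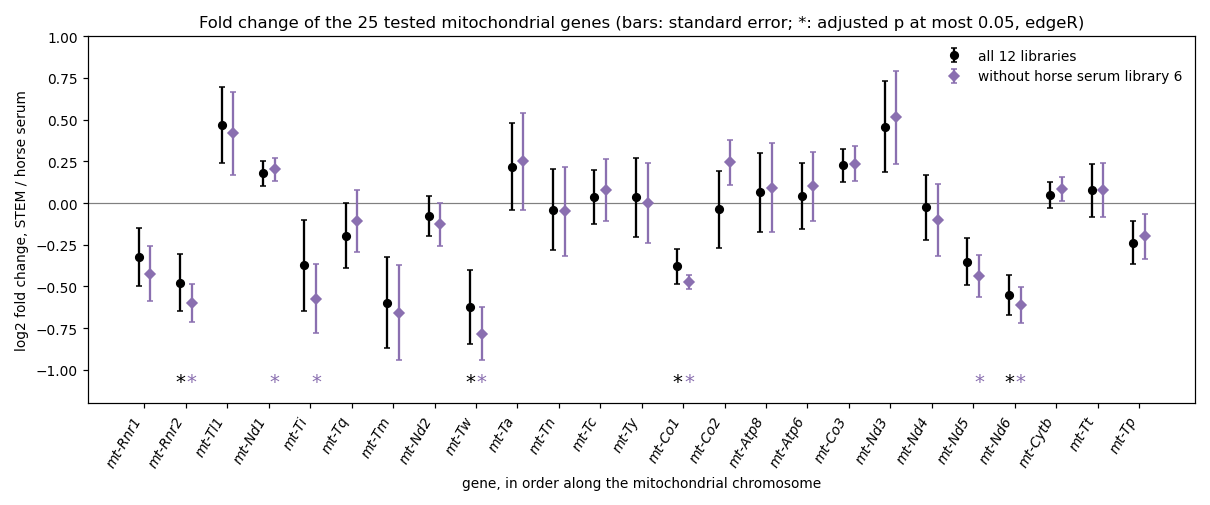
The plot gives the log2 fold change (STEM over horse serum) of the 25 tested mitochondrial genes in their order along the chromosome, with bars for the standard error, from all 12 libraries (black circles) and without HS library 6 (purple diamonds). Asterisks mark an adjusted p of 0.05 or less in the fit of that colour, and with all libraries they stand under mt-Rnr2, mt-Tw, mt-Co1 and mt-Nd6.

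Complex IV holds 3 mitochondrial subunits, of which mt-Co1 (chromosome M, 5328 to 6872, plus strand) had by far the most counts. Stretches of 150 bases also occur in nuclear copies, described below, for 23.6% of mt-Co1, 99.4% of mt-Co2 and 99.8% of mt-Co3. How such reads were counted is not given in the sources used here, so the size of the gap cannot be read as a difference in abundance. The level of mt-Co1 ran from 11182 CPM over a median of 18422 CPM to 18911 CPM in the HS libraries and from 12312 CPM over 13408 CPM to 13992 CPM with STEM. The lowest value was that of HS library 6, and the other HS libraries, from 17928 CPM upward, lay above all STEM libraries. The log2 fold change was -0.38 (SE 0.10, edgeR adjusted p = 0.0109) and, without HS library 6, -0.48 (SE 0.042, adjusted p = 2.77e-08). It was called in all 12 fits that left out a single library.

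The other mitochondrial subunits of complex IV were not called in the fit of all 12 libraries or without HS library 6, and their difference from mt-Co1 was not tested. The copper-binding subunit mt-Co2 was at 8.88 to 12.99 CPM in HS libraries 1 to 5, 24.9 CPM in HS library 6 and 11.3 to 18.4 CPM with STEM. Its log2 fold change was -0.04 with all libraries and 0.24 without HS library 6 (adjusted p = 0.143), so its direction turned on that library. The subunit mt-Co3 was at 24.2 to 28.4 CPM with horse serum and 24.7 to 40.3 CPM with STEM. The log2 fold change was 0.23 (SE 0.098, adjusted p = 0.0847).

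Complex I takes 7 subunits from the mitochondrial genome. Among them mt-Nd6 (13552 to 14070) is the single protein gene annotated on the minus strand, while the other 12 lie on the plus strand. It was at 27.8, 36.2 and 42.4 CPM (lowest, median and highest) with horse serum and at 20.6, 22.5 and 32.5 CPM with STEM. HS library 6 gave the lowest HS value, and all other HS libraries, from 35.6 CPM upward, exceeded every STEM library. The log2 fold change was -0.55 (SE 0.12, adjusted p = 0.00235), or -0.61 (adjusted p = 0.000402) without HS library 6, and it too was called whichever library was left out. The library kit marks the strand of each read, but whether reads were counted by strand is not given in the sources used here. Reads of mt-Nd6 and of the precursor running against it could therefore not be told apart, and the end of mt-Nd5 overlaps it.

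The proton-pumping subunit mt-Nd5 was at 177, 267 and 297 CPM with horse serum and at 162, 187 and 281 CPM with STEM. The lowest HS value was HS library 6 and the highest STEM value STEM library 12, and each lay within the other group. Its log2 fold change of -0.35 (SE 0.14, adjusted p = 0.0671) was not called, but it was without HS library 6 (-0.44, adjusted p = 0.0166). In contrast, mt-Nd1, a membrane subunit of the same complex, was at 357, 376 and 410 CPM with horse serum and at 367, 415 and 527 CPM with STEM. Here HS library 6 had the highest HS value, and the groups overlapped. The log2 fold change was 0.18 (SE 0.072, adjusted p = 0.0676) and without HS library 6 was 0.20 (adjusted p = 0.0229).

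Of the remaining complex I genes, mt-Nd2 was at 32.8 to 44.2 CPM with horse serum and 28.7 to 53.2 CPM with STEM, and mt-Nd4 at 44.7 to 67.0 CPM and 36.6 to 93.9 CPM. Both highest STEM values came from STEM library 12. The log2 fold changes were -0.08 for mt-Nd2 and -0.03 for mt-Nd4, neither called. The short gene mt-Nd3 had 0.494 to 1.37 CPM with horse serum and 0.918 to 2.22 CPM with STEM, with a log2 fold change of 0.46 (SE 0.27, adjusted p = 0.206). At most 3 counts in any library fell on mt-Nd4l, which was not tested.

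Complex III has 1 mitochondrial subunit, the cytochrome b gene mt-Cytb. It was at 260, 278 and 320 CPM with horse serum and 248, 285 and 356 CPM with STEM, with a log2 fold change of 0.05 (SE 0.076, adjusted p = 0.662). The groups overlapped over most of their range, and mt-Cytb was not called without HS library 6 either (0.09).

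The ATP synthase subunits mt-Atp8 and mt-Atp6 come from a single transcript on which their reading frames overlap. The overlap covers 43 bases and is shown because reads across it belong to both genes, and how the authors assigned them is not given in the sources used here. It lies at chrM:7927-7969 on the plus strand of GRCm38 (GENCODE transcripts), with capitals for the bases in both genes.
mt-Atp8 and mt-Atp6 overlap: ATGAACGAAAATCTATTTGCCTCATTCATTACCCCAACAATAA
Both genes had few counts. The level of mt-Atp8 was 0.411 to 1.03 CPM with horse serum and 0.592 to 0.943 CPM with STEM, and that of mt-Atp6 was 1.54 to 2.36 CPM and 1.47 to 3.30 CPM. Their log2 fold changes were 0.06 and 0.04, and the groups overlapped for both.

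**Figure D2:**
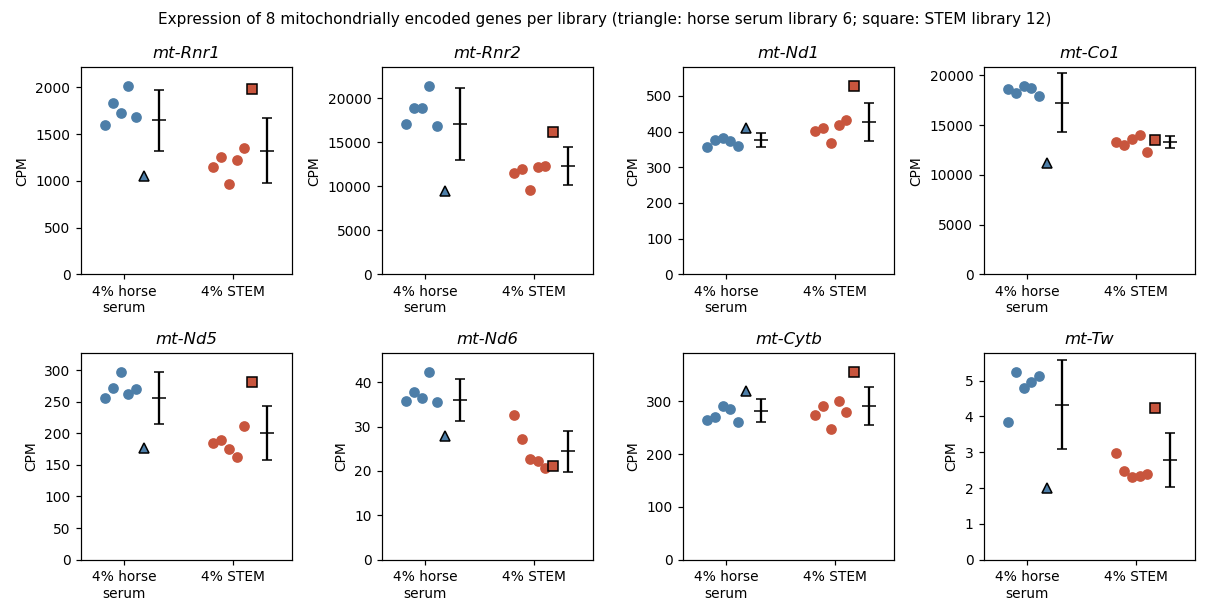
Each panel plots the CPM of one mitochondrial gene in the 12 libraries, with the y axis from 0 and the bar beside each group giving mean and SD (n = 6); the triangle is HS library 6 and the square STEM library 12. For mt-Co1 and mt-Nd6 the HS libraries other than library 6 lie above all STEM libraries, for mt-Rnr1, mt-Rnr2, mt-Nd5 and mt-Tw STEM library 12 stands above the rest of its group, and for mt-Cytb the groups overlap.

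The rRNAs were measured after rRNA depletion, so their counts are what the depletion left. The 16S rRNA mt-Rnr2 (1094 to 2675) was at 9413, 18013 and 21388 CPM with horse serum and at 9542, 12064 and 16139 CPM with STEM. HS library 6 lay below all STEM libraries, and STEM library 12 was highest in its group but below HS libraries 1 to 5. Its log2 fold change was -0.48 (SE 0.17, adjusted p = 0.042), and -0.60 (adjusted p = 0.00109) without HS library 6. This call was lost in 10 of the 12 fits that left out a single library, and held without HS library 6 or without STEM library 12. The 12S rRNA mt-Rnr1 (70 to 1024) was at 1052, 1702 and 2012 CPM with horse serum and at 971, 1235 and 1982 CPM with STEM. The STEM value of 1982 CPM was again library 12. Its log2 fold change was -0.32 (SE 0.17, adjusted p = 0.169) and, without HS library 6, -0.42 (adjusted p = 0.0545), neither called. Whether depletion differed between libraries was not tested.

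The tRNA genes had between 272 and 482 counts in all per library and 0.00187% to 0.00248% of the total. All tRNA genes, at 59 to 75 bases, are shorter than a read of 150 bases, so a full-length read on them also covers neighbouring sequence. Their counts can thus come from precursors or neighbouring genes, which could not be told apart from mature tRNAs. Of the 22 genes, 11 passed the filter on low counts. The sequences of mt-Tw and mt-Ti are shown because these tRNAs were called in a fit, and that of the glutamate tRNA mt-Te because it borders mt-Nd6 on the minus strand. Capitals mark bases that the annotation also gives to a neighbouring gene: for mt-Tw those of mt-Nd2, for mt-Ti those of mt-Nd1 and of mt-Tq. The positions are chrM:4950-5016 (plus), chrM:3706-3774 (plus) and chrM:14071-14139 (minus), from GENCODE transcripts of GRCm38.
mt-Tw: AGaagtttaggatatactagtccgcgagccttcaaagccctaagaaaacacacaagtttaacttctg
mt-Ti: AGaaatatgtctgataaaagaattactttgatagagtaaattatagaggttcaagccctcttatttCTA
mt-Te: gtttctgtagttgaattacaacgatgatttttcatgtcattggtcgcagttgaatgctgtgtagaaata
The tryptophan tRNA mt-Tw was at 2.00, 4.87 and 5.25 CPM with horse serum and 2.30, 2.43 and 4.24 CPM with STEM, from 35 to 85 counts per library. HS library 6 was the lowest of all libraries, and STEM library 12 overlapped the HS range. Its log2 fold change was -0.62 (SE 0.22, adjusted p = 0.0399), or -0.78 (adjusted p = 0.000363) without HS library 6, and was called in 2 of the 12 fits that left out a single library, those without HS library 6 or without STEM library 12. The isoleucine tRNA mt-Ti was at 0.410, 1.24 and 1.74 CPM with horse serum and 0.645, 0.940 and 1.001 CPM with STEM. Its log2 fold change was -0.37 (adjusted p = 0.306), and -0.57 (adjusted p = 0.0262) once HS library 6, the lowest of the HS group, was left out.

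The glutamate tRNA mt-Te had too few reads to pass the filter, with 9, 6, 17, 14, 11 and 8 counts in HS libraries 1 to 6 and 9, 11, 3, 3, 1 and 5 counts in STEM libraries 7 to 12. The groups overlapped. Fitted without a filter it had a log2 fold change of -1.18 (edgeR adjusted p = 0.029), where 15.7% of 29620 genes were called (7.79% higher, 7.9% lower). A two-sided exact permutation test of its CPM gave p = 0.013, also without HS library 6; it was run after its values were seen. Its last base lies next to the first base of mt-Nd6, as the following 30 bases show (chrM:14056-14085, minus strand), with capitals for the end of mt-Te.
mt-Te to mt-Nd6 junction: TGCTGTGTAGAAATAatgaataattatatt
A read that spans this border belongs to both mt-Te and mt-Nd6.

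The other tested tRNA genes were not called. The methionine tRNA mt-Tm had the lowest log2 fold change among them, at -0.60 (adjusted p = 0.101), and the leucine tRNA mt-Tl1, next to mt-Rnr2, the highest, at 0.47 (adjusted p = 0.121). Values for mt-Tq, mt-Tn, mt-Tp, mt-Ta, mt-Tc, mt-Ty and mt-Tt were between -0.24 and 0.22. The 8 tRNA genes on the minus strand had a median log2 fold change of 0.00 over 6 tested and 0 called, while the 14 on the plus strand had -0.37 over 5 tested with 1 called; the difference between the strands was not tested. Another 6 tRNA genes outside the copied stretch described below, mt-Te among them, had at most 17 counts in a library and were not tested.

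As a share of all counts, the 37 genes took 3.66% ± 0.629 (SD, n = 6) with horse serum and 2.81% ± 0.258 (SD, n = 6) with STEM, and 3.90% ± 0.203 (SD, n = 5) in HS libraries 1 to 5. The 95% Wilson half-width of any of these shares was at most 0.0104 percentage points, which covers counting error only. The protein genes held 1.88% to 1.96% of the counts in HS libraries 1 to 5, 1.31% in HS library 6 and 1.36% to 1.51% with STEM. Nearly all of that was mt-Co1, at 1.78% to 1.84%, 1.20% and 1.25% to 1.41%. The 12 other protein genes together held 0.101% to 0.114% with horse serum and 0.0949% to 0.139% with STEM. The rRNAs held 1.81% to 2.28%, 1.12% and 1.07% to 1.80%, with the highest STEM share in library 12. HS library 6 was thus below all STEM libraries for mt-Co1 and within their range for the rRNAs, but had the highest HS share for the 12 other protein genes.

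**Figure D3:**
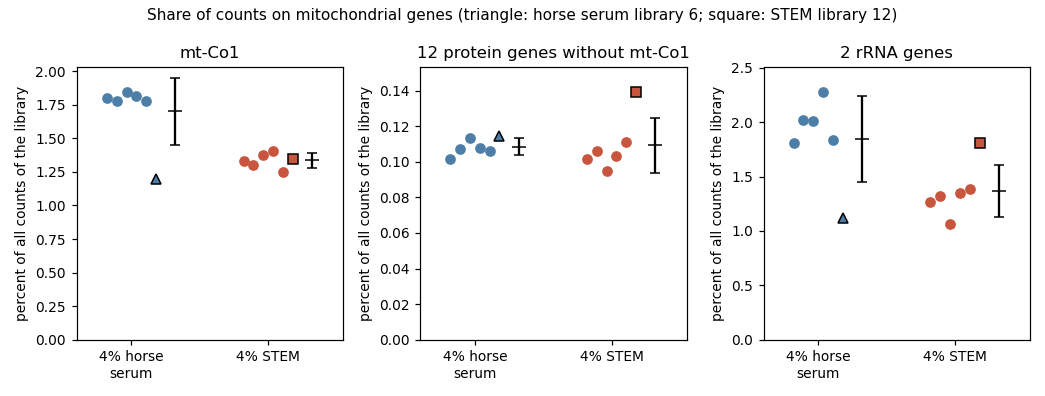
The panels give the percent of each library's counts on mt-Co1, on the other 12 protein genes and on the 2 rRNA genes, with one point per library, axes from 0 and bars for mean and SD (n = 6). The HS libraries other than library 6 (triangle) lie above all STEM libraries for mt-Co1, whereas the groups overlap for the other 12 protein genes, where STEM library 12 (square) is highest at 0.139%.

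Within the protein genes, mt-Co1 made up 94.2% to 94.7% of the counts in HS libraries 1 to 5, 91.3% in HS library 6 and 90.6% to 93.5% with STEM. When libraries were scaled to the 13 protein genes, the median log2 fold change of all genes moved to 0.33, on a scale of which mt-Co1 is nearly the whole. On that scale mt-Nd1 (0.48, adjusted p = 0.019) and mt-Co3 (0.53, adjusted p = 0.0147) were called higher and none lower, among 41.8% of all genes, 38.7% as higher and 3.13% as lower. Without HS library 6 this count was 7, with mt-Nd2, mt-Co2, mt-Atp6, mt-Nd3 and mt-Cytb added, but 78.4% of all genes were called in that fit, 73.9% as higher and 4.53% as lower, and their median was 0.46. Scaled to the 12 genes other than mt-Co1, a choice made after seeing the data, mt-Nd5 (-0.35, adjusted p = 0.0159) and mt-Nd6 (-0.52, adjusted p = 0.00585) were lower. Outside the protein genes, mt-Rnr2 and mt-Tw were called lower too. Of all genes 21.8% were called, 9.64% as lower, and mt-Co1 was at -0.35 (adjusted p = 0.0526). Without HS library 6, mt-Co1 (-0.44, adjusted p = 0.00171), mt-Nd5, mt-Nd6, both rRNAs and mt-Tw were called lower on that scale. In that fit 33.1% of all genes were called, 14.3% as lower. On this scale mt-Nd5 made up 23.7% to 25.6% of the 12 genes' counts in HS libraries 1 to 5, 16.6% in HS library 6 and 15.8% to 20.1% with STEM. For mt-Nd1 the shares were 33.0% to 34.3%, 38.4% and 37.7% to 41.0%, in the opposite direction. Because these are shares of the same total, a lower share of mt-Nd5 by itself raises those of the other genes.

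The levels of the protein genes differed by orders of magnitude. Per kilobase of gene, in HS libraries 1 to 5, mt-Co1 was at 11959 ± 256 CPM (SD, n = 5), followed by mt-Nd1 at 387 ± 11.8, mt-Cytb at 240 ± 11.3, mt-Nd5 at 149 ± 8.64 and mt-Nd6 at 72.5 ± 5.37 CPM per kilobase. Next came mt-Nd4 at 45.4 and mt-Nd2 at 39.2 CPM per kilobase, whose ranges overlapped, then mt-Co3 at 33.5 and mt-Co2 at 16.1. At the foot mt-Atp8 (3.46), mt-Nd3 (2.87) and mt-Atp6 (2.82) overlapped each other, above mt-Nd4l at 0.234 CPM per kilobase. With STEM the first 4 places were the same, and mt-Nd6 at 47.0 CPM per kilobase overlapped mt-Nd4, mt-Co3 and mt-Nd2. Of the rRNAs, mt-Rnr2 was at 11779 and mt-Rnr1 at 1852 CPM per kilobase in HS libraries 1 to 5.

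The genes at the foot of this order lie on a stretch of the mitochondrial chromosome that is also present in the nuclear genome. On chromosome 1, 7 annotated pseudogenes (24611535 to 24616197, minus strand) matched mitochondrial positions 6390 to 11042, 4653 bases, at 99.7% to 100% identity and with the same spacing to within 1 base. Chromosome 2 held further copies, with Gm13340 matching mt-Co1 over 1545 bases of which 37 differed. The windows below show why the copies matter to the counts: Gm29216 on chromosome 1 (chr1:24616071-24616130, minus) has the same 60 bases as mt-Co1 (chrM:6448-6507, plus), whereas Gm13340 (chr2:22588468-22588527, minus) differs at 3 bases, in capitals.
mt-Co1: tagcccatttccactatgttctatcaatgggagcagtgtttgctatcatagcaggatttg
Gm29216: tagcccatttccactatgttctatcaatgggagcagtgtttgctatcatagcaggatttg
Gm13340: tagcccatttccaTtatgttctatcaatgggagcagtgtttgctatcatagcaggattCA
A window of 150 bases, the length of a read, was found letter for letter in an annotated nuclear transcript for 23.6% of the positions in mt-Co1 and 59.2% of those in mt-Nd4. For mt-Co2, mt-Atp6, mt-Co3, mt-Nd3 and mt-Nd4l the share was 97.0% to 99.8%, and for mt-Nd1, mt-Nd2, mt-Nd5, mt-Nd6, mt-Cytb and both rRNAs it was 0. It was also 0 for mt-Atp8, which lies inside the copied stretch but between its annotated pseudogenes. Whether the copies themselves are transcribed cannot be told apart from reads of the mitochondrial genes placed on them.

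**Figure D4:**
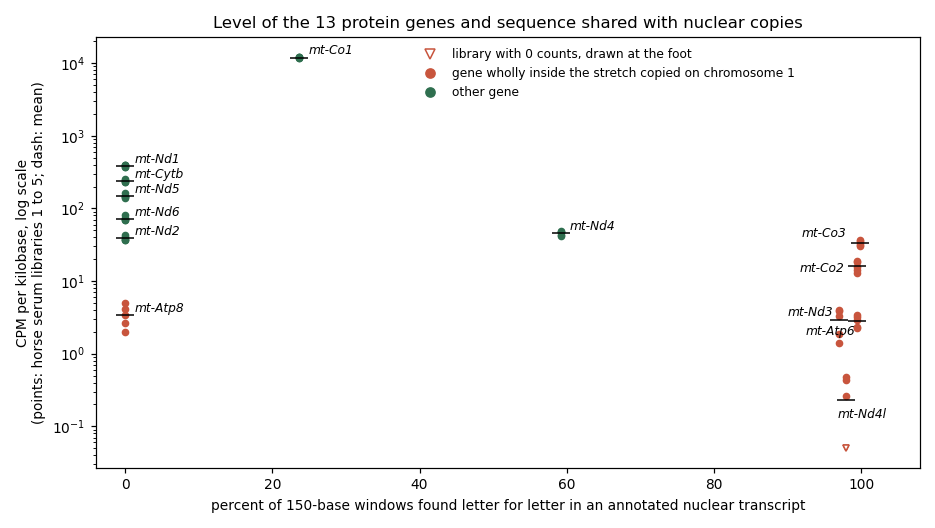
Each protein gene is placed by the percent of its 150-base windows found in an annotated nuclear transcript (x axis) and by its level in CPM per kilobase in HS libraries 1 to 5 (y axis, log scale; points are libraries, dashes means, and open triangles at the foot libraries with 0 counts). The 5 genes with 97.0% or more of their windows shared lie at or below 36.3 CPM per kilobase, the highest mt-Co3 value. So does mt-Atp8, which is inside the copied stretch without an annotated copy of its own and has 0% shared. Close above them lies mt-Nd2, also at 0%, with a mean of 39.2 CPM per kilobase. A relation between level and shared windows was not tested.

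The nuclear copies held from a small fraction of the counts of the genes they match to several times as many. The mt-Co3 copy Gm28437 had 428 to 892 counts per library beside 340 to 606 on mt-Co3, and the mt-Co2 copy Gm28661 had 144 to 350 beside 115 to 485 on mt-Co2. The other mt-Co2 copy, Gm13341 on chromosome 2, had 57 to 126 counts. For mt-Nd3 the copy Gm28438 had 65 to 116 counts beside 7 to 33, and for mt-Atp6 the copy Gm10925 had 44 to 76 beside 24 to 49. The copies of mt-Co1, Gm13340 with 1180 to 2009 counts and Gm29216 with 596 to 1129, stood beside 200922 to 325785 counts on mt-Co1 itself. The 5 tRNA genes inside the copied stretch, mt-Ts1, mt-Td, mt-Tk, mt-Tg and mt-Tr, had 3 counts in all libraries together, and the 17 outside it had 4156. Of these 4156, 4001 fell on the 11 tested genes and 155 on the other 6, with 1 on mt-Ts2, so some genes outside it were as low.

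When the counts of each gene were summed with those of its copies, the calls among the members were mt-Co1, mt-Nd6, mt-Rnr2 and mt-Tw, as before. The log2 fold change of mt-Nd3 went from 0.46 to 0.04 and that of mt-Co2 from -0.04 to 0.05, both not called, and that of mt-Co3 from 0.23 to 0.18 (adjusted p = 0.0551). Without HS library 6, the summed mt-Co3 was called higher (0.20, adjusted p = 0.0158), which made 5 protein genes, among 50.8% of all genes. These sums were a choice made after seeing the data.

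Nuclear genes supply the factors that act on mitochondrial DNA and RNA. Across lists for transcription, replication, RNA processing and decay, tRNA modification, tRNA charging and the mitochondrial ribosome, 64 of 193 tested genes were higher with STEM and 18 lower, at a median log2 fold change of 0.12. Without HS library 6 the counts were 82 and 28, where 26.3% and 24.5% of all genes were called higher and lower. Of 30 genes for RNA processing and decay, 16 were higher and 1 lower (median 0.21), beside the 18.9% and 17.4% of all genes. Lrpprc, which stabilizes mitochondrial mRNAs, was at 90.9 to 98.1 CPM in HS libraries 1 to 5, 112 CPM in HS library 6 and 119 to 129 CPM with STEM. The log2 fold change was 0.34 (SE 0.051, adjusted p = 0.000123). Its partner Slirp was at 0.10 (adjusted p = 0.169), while Ptcd3 (0.23) and Angel2 (0.36) were higher. For tRNA modification 12 of 26 were higher and 4 lower, led by the methyltransferase Nsun2 (0.27), Yrdc (0.36) and the pseudouridine synthase Pus1 (0.39). Of the 20 aminoacyl-tRNA synthetases, which charge the mitochondrial tRNAs, 8 were higher and 1 lower, with Ears2 for glutamate at 0.57 (adjusted p = 0.000195), Cars2 at 0.41 and Yars2 at 0.26. Of the 83 mitoribosomal proteins 21 were higher and 6 lower, among them Mrps18b (0.51) and Mrpl20 (0.35).

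For transcription of mitochondrial DNA, 5 of 19 genes were higher and 3 lower, and for replication 3 of 17 were higher and 3 lower, both near the 18.9% and 17.4% of all genes. The RNA polymerase Polrmt was at 15.5 to 18.5 CPM in HS libraries 1 to 5, 22.9 CPM in HS library 6 and 20.4 to 25.9 CPM with STEM, and rose by a log2 fold change of 0.31 (SE 0.095, adjusted p = 0.0197). The DNA-packaging transcription factor Tfam was at 46.9 to 52.2 CPM with horse serum and 41.1 to 51.8 CPM with STEM (-0.05, adjusted p = 0.551). Ppargc1a, the coactivator of mitochondrial biogenesis, was at 1.02 to 5.85 CPM and 2.26 to 4.85 CPM (-0.02, adjusted p = 0.963). Mterf3 (0.32) and the nuclear receptor Esrra (0.27) were higher, and Gabpa (-0.21), a regulator of nuclear respiratory genes, was lower. Among the replication genes, the ligase Lig3 (0.34) and Endog (0.48) were higher and the exonuclease Mgme1 (-0.27) was lower.

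The nuclear subunits that assemble with the mitochondrial ones showed few calls until HS library 6 was left out. With all libraries, 8 of 81 tested subunits of complexes I to V were higher and 2 lower, and without it 8 were higher and 36 lower, at median log2 fold changes of -0.02 and -0.08. Over all genes the shares were 18.9% higher and 17.4% lower, and without HS library 6 they were 26.3% and 24.5%, so the subunits called lower were a smaller share than among all genes with that library and a larger one without it. Complex I had 4 of 37 higher and 1 lower, with Ndufa8 (0.18) and Ndufb10 (0.24) higher and Ndufa1 (-0.39) lower, and without HS library 6 it had 17 lower. Complex II, which has no mitochondrial subunit, had Sdhb (0.27) higher of 4 tested. Complex III had Uqcrc1 (0.22) and Cyc1 (0.21) higher and Uqcrc2 (-0.32) lower of 9, and complex V had Atp5g1 (0.39) higher of 18. In complex IV, the partners of mt-Co1, edgeR called 0 of 14, with 1 at an unadjusted p under 0.05, DESeq2 and limma-voom called 0, and edgeR called 8 lower without HS library 6. The summed level of its nuclear subunits was 2878 to 3127 CPM in HS libraries 1 to 5, 2149 CPM in HS library 6 and 2631 to 2887 CPM with STEM.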

How the data were processed

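RNA of C2C12 myotubes was sequenced from 12 stranded, rRNA-depleted total RNA libraries in paired reads of 150 bases. The authors deposited raw read counts per gene, with no normalization. Per the submitters' processing notes, the tools included STAR 2.7.3a, featureCounts 1.6.3 and DESeq2 1.26.0 with build GRCm38; the annotation release, the strand setting and the treatment of multiply aligned or overlapping reads are not given in the sources used here. Gene names, positions and sequences came from GENCODE M21.

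Counts were tested with edgeR 4.0.16 (TMM, filterByExpr, robust glmQLFit, glmQLFTest) in R 4.3.3 on the whole table, after a trial on simulated data. In that trial, with 200 genes changed, 5.08% of the genes edgeR called were false, 14.2% of those DESeq2 called and 5.53% of those limma-voom called. Of 100 genes changed 2-fold they recovered 91, 94 and 92 in the same order. The trial was a single draw from spreads that edgeR estimated, with few of 14175 genes changed and no library set apart. Its rates therefore cannot be carried over to these data or used to rank the tools. Standard errors are the size of the log2 fold change over the square root of F. CPM values use TMM library sizes, and shares use plain totals. Copies of mitochondrial sequence were sought with blastn in annotated transcripts only (at least 60 bases aligned, at least 95% identity for summing). Alternatives were DESeq2 1.42.0, limma-voom from limma 3.58.1, other scalings, other filters on low counts, thinning to the lowest total, and fits without each library in turn. Named genes were all members, up to 3 called genes with the lowest p per nuclear list, Tfam, Polrmt, Ppargc1a, Lrpprc, Slirp and the nuclear copies with over 100 counts; Gm10925 was named after its values were seen. The members and lists were chosen with earlier results of these data known. Intervals cover counting error only.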

Additional observations from a re-analysis of the deposited data

Results flagged for a closer look

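Levels of the tested members and shares of the classes were examined in each group of 6 libraries for a library far from the others, by Dixon's ratio at its 95% critical value. Of 56 groups 9 were picked out, and chance picks about 1 in 20. Of these, 4 concerned HS library 6. It had the lowest mt-Co1 of its group at 11182 CPM, the lowest mt-Nd5 at 177 CPM, the highest mt-Co2 at 24.9 CPM, and the lowest share of counts on protein genes at 1.31%. Another 4 concerned STEM library 12, which had the highest values of its group for mt-Nd2 at 53.2 CPM, mt-Co2 at 18.4 CPM, mt-Atp6 at 3.30 CPM and mt-Tw at 4.24 CPM. The last was mt-Ti in STEM library 10, at 0.645 CPM against 0.921 CPM or more in the other STEM libraries.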

How the results depend on the processing

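No paired analysis was possible because HS libraries are numbered 1 to 6 and STEM libraries 7 to 12, which share no numbers. The calls of mt-Co1 and mt-Nd6 were the same under every alternative run, except on the scales of the protein genes themselves given above, and on the scale of all genes no called member changed sign. Between scales mt-Nd2 did: it was called lower without HS library 6 and STEM library 12 (-0.25) and higher on the scale of the 13 protein genes without HS library 6 (0.32). Of the protein genes 2 were called, and 2 to 4 when single libraries were left out, with 4 without HS library 6. Without HS library 6 and STEM library 12, an alternative chosen after seeing the data, 5 protein genes, 2 rRNA genes and 2 tRNA genes were called. Of the nuclear lists 149 genes were then called in place of 92, while the share of all genes called went from 36.4% to 49.6%. Leaving out single libraries gave 0 to 2 rRNA genes, 0 to 2 tRNA genes and 72 to 154 genes of the nuclear lists, the last without HS library 6. Over all genes the same fits called 4459 to 7245, the last also without HS library 6. With no filter on low counts 0 rRNA genes (1 at an unadjusted p under 0.05) and 2 tRNA genes were called. DESeq2 called 2 tRNA genes, and limma-voom 0 rRNA genes (1 unadjusted) and 0 tRNA genes (2 unadjusted). Thinned to the lowest total, 0 of 9 tested tRNA genes were called (2 unadjusted). The adjusted p for the log2 fold change of mt-Rnr2 was 0.0509 with limma-voom and 0.126 with no filter, and DESeq2 gave 0.0318 for the log2 fold change of mt-Nd5. The median log2 fold change of the tRNA genes, -0.04, was -0.21 with at least 10 counts in every library, where 5 were tested, -0.24 after thinning, and -0.15 to 0.07 when single libraries were left out. On the scale of the 13 protein genes, 2 to 7 were called when single libraries were left out, 7 without HS library 6. The share of counts on mitochondrial genes fell by 0.845 points with STEM. When single libraries were left out, the difference lay between -1.09 and -0.736 points. In every alternative it moved by less than the HS SD of 0.629. That SD includes HS library 6, whose share of 2.43% lay below all STEM libraries (2.54% to 3.29%). Without HS library 6 the SD was only 0.203. Low counts limit the tRNA genes and mt-Nd4l: 3 counts were 0.226 CPM in the shallowest library. The causes of these changes were not tested.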
